A study of Mus musculus with 48 samples.

Results

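The 48 Mesp1-induced mouse cells were divided into 4 quadrants by whether each cell held RNA of Kdr and of Pdgfra, the receptor genes by which mesoderm of differentiating embryonic stem cells is usually sorted. A gene counted as detected in a cell at 1 FPKM (fragments per kilobase of transcript, scaled to the mapped fragments of the cell) or more. Groups were defined by these values alone: 16 cells held both receptors, 6 held Kdr only, 15 held Pdgfra only and 11 held neither, so that all 48 cells were placed. The cells came from embryonic stem cells of strain 129P2/OlaHsd that carry a Mesp1 gene induced by doxycycline, grown as embryoid bodies, which are floating aggregates of differentiating cells. Doxycycline was given at 500 ng/ml over days 2.25 to 3.25 to every cell's culture, and live cells were sorted as negative for propidium iodide at day 4 and captured singly on a Fluidigm C1 chip. No uninduced cells were analysed here. All cells carry the same group label and no culture is named for any of them. The cells therefore stand as 1 sample, comparisons between quadrants are descriptions, and no p-value or standard error was made from cells.

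Kdr encodes VEGF receptor 2, a receptor tyrosine kinase that binds vascular endothelial growth factors. It marks lateral plate and extraembryonic mesoderm and is needed for the progenitors of blood and endothelium. Pdgfra encodes the alpha receptor of platelet-derived growth factors and marks paraxial and cardiac mesoderm. Cells with both receptors are a known stage of cardiovascular progenitors, and loss of Pdgfra accompanies entry into the hemangiogenic path. Mesp1 is a basic helix-loop-helix factor of nascent mesoderm, a class of factors that binds the E-box.

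Both genes lie on mouse chromosome 5 (GRCm38). Pdgfra spans 75152292 to 75198215 on the plus strand and Kdr spans 75932827 to 75978458 on the minus strand, with 734.6 kb between them. The gene of a related receptor, Kit, lies in this interval at 75574916 to 75656722. The 250 bases before the RefSeq start (GRCm38.p6) are shown for both rule genes, because their detection made the groups, and for Hoxb1 and Etv2, on which the description of the single-receptor quadrants turns. Each sequence is written 5′ to 3′ on the gene's own strand, with E-box letters (CANNTG, which reads the same on both strands) in capitals.
Kdr promoter (chromosome 5, 75978456 to 75978705, minus strand): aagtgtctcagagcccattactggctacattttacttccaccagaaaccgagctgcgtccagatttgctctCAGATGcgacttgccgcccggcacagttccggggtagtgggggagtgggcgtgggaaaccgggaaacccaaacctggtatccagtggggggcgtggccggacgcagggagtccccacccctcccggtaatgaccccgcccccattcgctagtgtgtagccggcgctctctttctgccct
Pdgfra promoter (chromosome 5, 75152001 to 75152250, plus strand): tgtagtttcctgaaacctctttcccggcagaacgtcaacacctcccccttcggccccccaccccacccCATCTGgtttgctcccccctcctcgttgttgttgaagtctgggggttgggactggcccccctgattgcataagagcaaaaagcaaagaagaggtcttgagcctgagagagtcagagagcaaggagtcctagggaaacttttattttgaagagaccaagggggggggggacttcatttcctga
Hoxb1 promoter (chromosome 11, 96365508 to 96365757, plus strand): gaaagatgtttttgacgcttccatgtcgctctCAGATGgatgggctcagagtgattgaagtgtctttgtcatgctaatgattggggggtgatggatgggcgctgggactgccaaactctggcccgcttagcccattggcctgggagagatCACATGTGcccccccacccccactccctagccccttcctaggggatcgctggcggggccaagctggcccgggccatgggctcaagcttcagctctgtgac
Etv2 promoter (chromosome 7, 30635853 to 30636102, minus strand): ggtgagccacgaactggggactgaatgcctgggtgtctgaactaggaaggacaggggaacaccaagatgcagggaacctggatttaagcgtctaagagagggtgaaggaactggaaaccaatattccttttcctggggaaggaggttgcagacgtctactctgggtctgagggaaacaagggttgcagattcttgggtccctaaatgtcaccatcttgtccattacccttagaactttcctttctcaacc
CANNTG was found 1 time before Kdr, 1 time before Pdgfra, 3 times before Hoxb1 and 0 times before Etv2. The Hoxb1 matches include 2 that overlap within CACATGTG. Of 32851 promoter windows of this length, 66.2% held CANNTG, so its presence is common. GATAA, the core bound by GATA factors, was searched on both strands and was in none of the 4 windows, against 22.6% of all windows. CGGAA, an ETS core searched on both strands, was found 1 time, before Kdr, against 25.2% of all windows. These matches describe letters in the windows and not binding.

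The rule values were spread widely within each quadrant. Kdr ranged from 1.47 through a median of 13.5 to 37.9 FPKM in cells with both receptors and from 1.38 through 14.6 to 26.1 FPKM in Kdr only cells. Pdgfra ranged from 2.14 through 10.7 to 67.8 FPKM with both and from 1.05 through 9.58 to 44.5 FPKM in Pdgfra only cells. Each receptor therefore covered a similar range whether or not the other was detected. Below the threshold the quadrants were less alike. Of the 15 Pdgfra only cells, 8 were listed at 0 for Kdr and the other 7 reached at most 0.850 FPKM. Of the 6 Kdr only cells, 3 were listed at 0 for Pdgfra and the highest held 0.538 FPKM. In the neither quadrant, 10 of 11 cells were listed at 0 for Kdr and 10 of 11 for Pdgfra, with highest values of 0.0747 and 0.0510 FPKM. Just inside the Kdr threshold stood cells of 1.38, 1.42 and 1.47 FPKM, and just outside stood Pdgfra only cells of 0.850, 0.805 and 0.350 FPKM. Just inside the Pdgfra threshold stood cells of 1.05, 2.14 and 2.26 FPKM, and just outside stood Kdr only cells of 0.538, 0.452 and 0.163 FPKM.

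**Figure D1:**
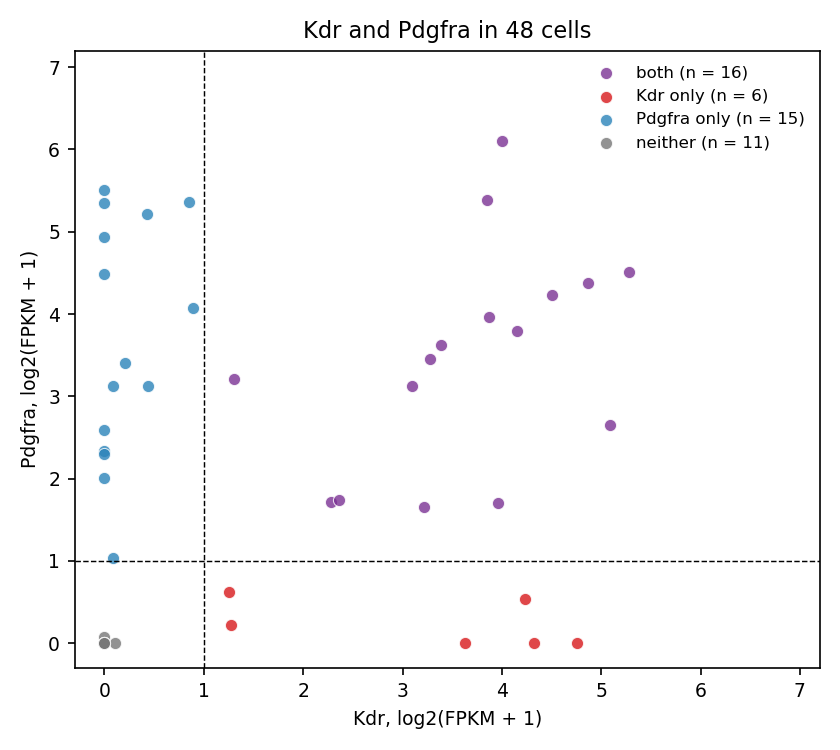
Kdr (horizontal) against Pdgfra (vertical) in 48 cells, both as log2(FPKM + 1), coloured by quadrant, with dashed lines at 1 FPKM. The 11 neither cells sit at or near the origin, while 7 of the 15 Pdgfra only cells carry some Kdr below the threshold.

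Cells with both receptors made up 33.3% of the 48 (exact Clopper-Pearson 95% interval 20.4 to 48.4%), Kdr only cells 12.5% (4.73 to 25.2%), Pdgfra only cells 31.2% (18.7 to 46.3%) and neither cells 22.9% (12.03 to 37.3%). These intervals cover counting error only. Pdgfra was detected in 72.7% of the 22 cells with Kdr and in 57.7% of the 26 cells without it. The product of the shares of Kdr (45.8%) and Pdgfra (64.6%) would place 14.2 cells in the double quadrant, beside the 16 found. In a single cell, a transcript that was absent and one lost during capture cannot be told apart. The depth of each cell is unknown, because FPKM values hold no read counts.

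The number of genes at 1 FPKM or more per cell had a median of 6350 (5111 to 7010) with both receptors, 6392 (5057 to 6744) with Kdr only, 6201 (4788 to 6768) with Pdgfra only and 6038 (4878 to 6960) with neither. Across the 48 cells this number was lower at higher numbers in the cells' labels (Spearman rho -0.82), a label whose meaning the labels do not state. The median label number was 27, 47.5, 53 and 70 in the same order. Short RNA rows took a median of 8.93 to 19.6% of the summed FPKM per quadrant and up to 96.6% in 1 neither cell. The closest pair of cells had a Pearson r of 0.816 across genes on the log2 scale, against a median of 0.755 over all pairs, so no cell was a copy of another. The share of these technical measures in the differences below was not tested. Values within label ranges are given for some of the genes that they move.

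**Figure D2:**
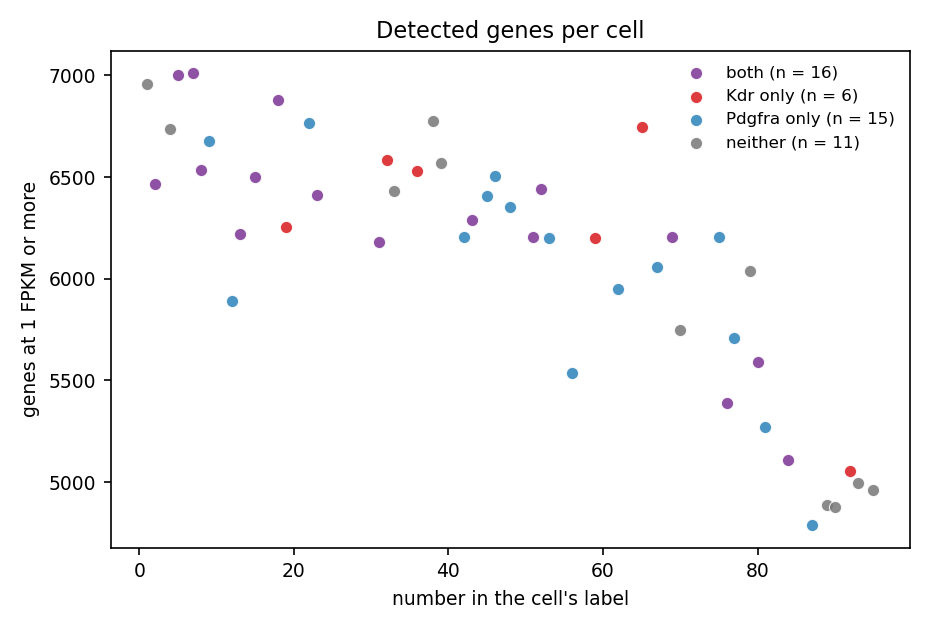
Genes at 1 FPKM or more in each of 48 cells (vertical) against the number in the cell's label (horizontal), coloured by quadrant. The lowest counts are at high label numbers, although a Kdr only cell numbered 65 holds 6744 genes, and 4 of the 7 cells under 5189 genes are neither cells.

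The ligands, partners and effectors of the receptors came next, from lists written with earlier results of these data known. A difference is the mean of log2(FPKM + 1) in 1 quadrant minus that in another, and a gene was counted at a difference of 2 or more (4-fold on the geometric scale) if it was detected in at least 5 cells of the comparison. Of 8549 genes compared between Pdgfra only and Kdr only cells, 78 (0.912%) were counted as higher with Pdgfra only and 96 (1.12%) as higher with Kdr only. Of 9304 genes compared between both and neither cells, 75 (0.806%) were counted as higher with both and 52 (0.559%) as higher with neither. The median difference over all genes was 0.01 in the first comparison and 0.08 in the second. The size of these totals moved with the cells used: among cells of 1 label range the first comparison counted between 217 and 318 genes in each direction. The cause of this shift was not tested. Values shuffled over cells gave totals of a similar size in the first comparison, so the totals are background only and nothing is read from them. Kdr and Pdgfra themselves are left out. A gene can pass the filter only through the quadrant where it is high, which fixes its sign, so counts and medians of a list describe the members that passed and support nothing about the list.

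Among 16 VEGF ligands, receptors and effectors, 7 passed the filter in the first comparison and 11 in the second. Vegfb, a ligand of VEGF receptor 1, was detected in 44 of 48 cells, at a median of 25.4 FPKM with both receptors, 15.1 with Kdr only, 4.97 with Pdgfra only and 18.7 with neither. Vegfa, the main ligand of Kdr, stayed at or below 13.3 FPKM and was detected in 9 cells. Nrp1, a co-receptor that binds VEGF beside Kdr, ranged from 0 through 24 to 72.4 FPKM with both receptors and from 2.56 through 15.6 to 69.7 FPKM with Kdr only. It ranged from 0 through 3.08 to 34.6 FPKM with Pdgfra only and from 0 through 0 to 18.6 FPKM with neither. Nrp1 was thus high in most Kdr-bearing cells of either quadrant, although all ranges overlapped, and its difference between both and neither was 2.97. Shc1, an adaptor of activated receptors, was higher in Kdr only than in Pdgfra only cells by a difference of 2.23, with medians of 31.2 and 1.97 FPKM. No other member of this list was counted in either comparison.

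Among 16 PDGF ligands, receptors and effectors, none was counted: 8 passed the filter in the first comparison, with a median difference of -0.46, and 11 in the second, with a median of 0.15. Pdgfa, the ligand of PDGF receptor alpha, was detected in 6 of 15 Pdgfra only cells, 1 of 6 Kdr only cells, 5 of 16 double cells and 6 of 11 neither cells. Pdgfb, the main ligand of the beta receptor, was listed at 0 in all 48 cells. Pdgfrb, the beta receptor, was detected in 4 of 6 Kdr only cells and 4 of 15 Pdgfra only cells, with highest values of 17 and 17.4 FPKM. Adaptors of both pathways were broadly present, with Grb2 in 35 cells and Nck1 in 37.

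Of 11 genes that neighbour the receptors on chromosome 5, 5 passed the filter in the first comparison and 6 in the second, and none was counted. Kit, the receptor of stem cell factor, was detected in 7 of 16 double cells, 3 of 6 Kdr only cells, 1 of 15 Pdgfra only cells and 6 of 11 neither cells. Fip1l1, a polyadenylation factor gene, was detected in 42 of 48 cells, with medians between 3 and 8.06 FPKM.

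Early hemangiogenic factors were detected in most Kdr only cells. Etv2 (chromosome 7, 30633616 to 30635852), an ETS family factor that starts the blood and endothelial programme, ranged from 0 through 38.5 to 907 FPKM in Kdr only cells and was detected in 5 of 6. It ranged from 0 through 9.73 to 246 FPKM with both receptors (11 of 16 cells), from 0 through 0 to 548 FPKM with Pdgfra only (7 of 15) and from 0 through 0 to 207 FPKM with neither (3 of 11). Etv2 was therefore frequent wherever Kdr was detected and occurred in each quadrant, and its difference between Pdgfra only and Kdr only cells was -3.60. Within label numbers up to 48 the difference was -3.21, and above 48 it was -3.91.

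Gata2, a zinc finger factor of blood and endothelial progenitors, was rarer than Etv2 in cells without Kdr. It ranged from 0 through 20.2 to 97.0 FPKM in Kdr only cells (5 of 6 detected; 35.9 to 99.6%) and was found in 1 of 15 Pdgfra only cells (0.17 to 31.9%), at 14.1 FPKM. With both receptors it was detected in 7 of 16 cells, up to 152 FPKM, and with neither in 2 of 11. The difference between Pdgfra only and Kdr only cells was -3.41. Egfl7, a secreted protein of endothelial cells and their progenitors, had medians of 30.3 FPKM with Kdr only and 0 with Pdgfra only, and a difference of -3.17. It was also detected in 8 of 16 double cells and 7 of 11 neither cells, so it was not limited to cells with Kdr. Lmo2, a LIM adaptor of the same factor complex as Tal1, was detected in 4 of 6 Kdr only, 1 of 15 Pdgfra only, 4 of 16 double and 2 of 11 neither cells, with a difference of -2.73. Tal1, the basic helix-loop-helix partner, was detected in 3 of 6 Kdr only cells at up to 66.0 FPKM and in 1 of 15 Pdgfra only cells, too few to pass the filter.

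Etv2 and Gata2 were detected together in 5 of 6 Kdr only cells, 3 of 16 double cells, 0 of 15 Pdgfra only cells and 0 of 11 neither cells, a pair chosen after the values were seen. Zero of 15 allows a share of up to 20%, and zero of 11 up to 27.3%. The Kdr only cell without either factor, number 32, held Kdr at 1.42 FPKM, 1 of 23 members of the hemangiogenic and endothelial list and 16 of 19 pluripotency members. Cell 59, with Kdr at 1.38 FPKM, held Etv2 at 39.3 FPKM, Gata2 at 5.54 FPKM and 7 hemangiogenic members. The other Kdr only cells held 5 to 9 members. Over all quadrants the median was 8 members with Kdr only, 3 with both, 1 with Pdgfra only and 3 with neither, and the highest neither cell, number 90, held 8.

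Of the 23 hemangiogenic and endothelial genes, 6 passed the filter in the first comparison, with 4 counted as higher with Kdr only (Etv2, Gata2, Egfl7 and Lmo2) and 0 with Pdgfra only. Their median difference was -2.95. Between both and neither cells 8 passed, with a median difference of 0.17, and 1 was counted as higher with neither and 0 with both. Members of this list that mark formed endothelium were mixed. Cdh5, Emcn and Icam2 were listed at 0 in all cells, and Pecam1, Erg, Tie1 and Sox18 stayed below 1 FPKM in all cells. Ramp2, a co-receptor of adrenomedullin, was detected in 24 cells and Flt1, VEGF receptor 1, in 10, at up to 25.9 FPKM. Flt4 and Rasip1 were each detected in 6 cells, and Tek, the angiopoietin receptor, in 2, with 22.3 FPKM in a Kdr only cell. Among blood genes, the globins Hbb-bh1, Hba-x, Hba-a1 and Hbb-y and the pan-leukocyte gene Ptprc were listed at 0 in all cells. Runx1, a factor of blood emergence, was detected in 3 of 6 Kdr only, 5 of 16 double, 2 of 15 Pdgfra only and 0 of 11 neither cells.

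Other genes higher in Kdr only cells included growth regulators. Myc, a growth-promoting transcription factor, was detected in all 6 Kdr only cells, from 18.4 through 47.5 to 170 FPKM, and in 6 of 15 Pdgfra only cells, from 0 through 0 to 146 FPKM. Its difference was -3.81 over all cells and -1.30 within label numbers up to 48. Fgf3, a secreted growth factor, was detected in 5 of 6 Kdr only cells at up to 96.5 FPKM, 4 of 15 Pdgfra only cells at up to 10.7 FPKM and 0 of 11 neither cells, and its difference was -3.08. Fgf15 had a difference of -2.48. These were the members counted among the FGF genes, of which 9 passed. Asap1, a GTPase-activating protein of ARF proteins, was the only gene of the 8549 whose values did not overlap: the lowest Kdr only cell held 9.99 FPKM and the highest Pdgfra only cell 6.49. Cyp26a1, which degrades retinoic acid, and Mixl1, a homeobox factor of the streak, were also counted as higher with Kdr only, by differences of -2.54 and -2.42. Both were close to level within label numbers up to 48, at -0.51 and -0.32.

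On the Pdgfra side stood Hoxb1 (chromosome 11, 96365752 to 96368256), a Hox gene expressed early in posterior mesoderm and the second heart field. Hoxb1 ranged from 0.237 through 41.6 to 132 FPKM in Pdgfra only cells and was detected in 14 of 15 (68.0 to 99.8%). It ranged from 0 through 30.5 to 112 FPKM with both receptors (15 of 16), from 0 through 0.548 to 18.4 FPKM with Kdr only (2 of 6; 4.33 to 77.7%) and from 0 through 0 to 18.4 FPKM with neither (4 of 11). Hoxb1 was detected in 29 of 31 cells with Pdgfra and 6 of 17 without it. The ranges overlapped, and 10 of the 31 lay no higher than the highest cell without Pdgfra, at 18.4 FPKM. Its difference was 3.67 between Pdgfra only and Kdr only cells and 3.23 between both and neither cells. Within label numbers up to 48 these were 2.71 and 2.24, and above 48 they were 4.62 and 4.2.

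Isl1, a LIM homeodomain factor of second heart field progenitors, took the same side. It had medians of 23.8 FPKM with Pdgfra only (9 of 15 cells detected), 20.3 with both (12 of 16), 0.0943 with Kdr only (2 of 6) and 0 with neither (2 of 11). Its differences were 2.15 and 2.82. Hoxb1 and Isl1 were detected together in 12 of 16 double cells and 9 of 15 Pdgfra only cells, and in 1 of 6 Kdr only and 1 of 11 neither cells. Prrx2, a homeobox gene of mesenchyme, was detected in 10 of 15 Pdgfra only cells at up to 59.6 FPKM and in 0 of 6 Kdr only cells, which allows a share of up to 50%; its difference was 2.3. Id2, a BMP target that inhibits basic helix-loop-helix factors, had a difference of 2.53 that was 0.12 within label numbers up to 48. Sfrp1, a secreted WNT antagonist, was detected in 10 of 15 Pdgfra only and 1 of 6 Kdr only cells, but also in 10 of 11 neither cells.

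**Figure D3:**
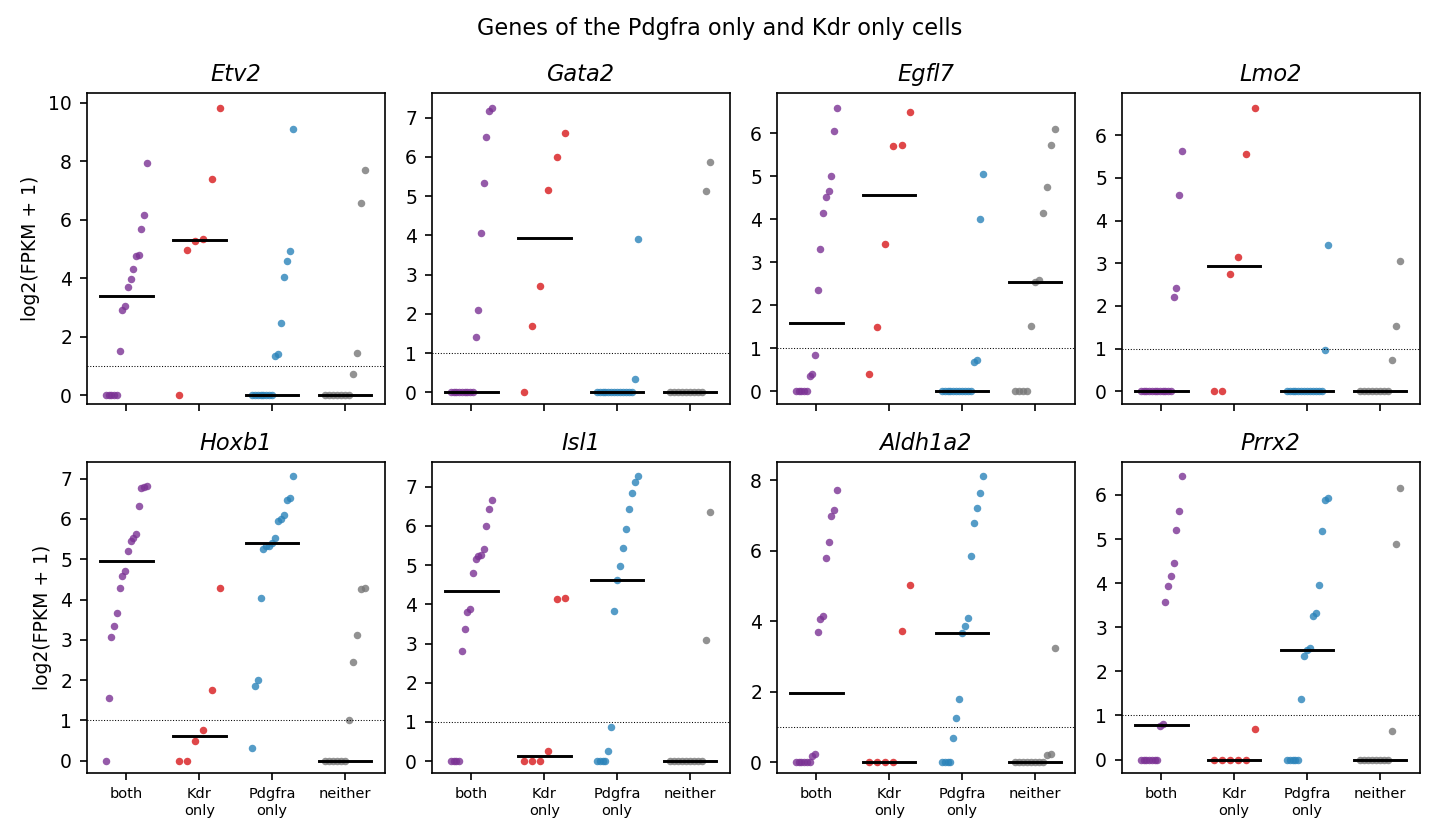
Log2(FPKM + 1) of 8 genes in each cell of the 4 quadrants (points, sorted within a quadrant), with black bars at the medians and dotted lines at 1 FPKM. Etv2, Gata2, Egfl7 and Lmo2 have their highest medians in Kdr only cells, and Hoxb1, Isl1, Aldh1a2 and Prrx2 in Pdgfra only cells.

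Paraxial genes are given beside the shares over all genes, 0.912% counted as higher with Pdgfra only and 1.12% with Kdr only. Of 18 paraxial genes, 8 passed the filter in the first comparison, 0 were counted as higher with Pdgfra only and 1 (Cyp26a1) as higher with Kdr only, with a median difference of 0.66. Aldh1a2, the enzyme that makes retinoic acid in somitic mesoderm, had medians of 11.8 FPKM with Pdgfra only and 0 with Kdr only, and a difference of 1.94, just under the mark. Dll3, a Notch ligand of presomitic mesoderm, was detected in 11 of 15 Pdgfra only and 1 of 6 Kdr only cells, with a difference of 1.68. Foxc1, a forkhead factor of paraxial and cardiac mesoderm, was detected in 9 of 15 and 1 of 6. Committed markers were sparse everywhere: Tbx6 was detected in 13 cells, Tcf15 in 7 and Msgn1 in 5 of the 48.

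Several cardiac and lateral plate genes were counted between double and neither cells. Of 21 such genes, 13 passed the filter in that comparison, 5 were counted as higher with both receptors (Hand1, Tbx3, Gata4, Bmp4 and Isl1) and 0 with neither. The median difference of the 13 was 1.87, but Hand1, Hand2, Tbx5 and Foxf1a were detected in no neither cell and passed through the double cells alone. Between Pdgfra only and Kdr only cells 11 passed, with a median of -0.68, and the counted members were Isl1 on the Pdgfra side and Gata6 on the Kdr side.

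Hand1 (chromosome 11, 57828705 to 57832818), a basic helix-loop-helix factor of lateral plate and heart, ranged from 0 through 33.7 to 204 FPKM with both receptors (12 of 16 cells). It ranged from 0.412 through 15.6 to 192 FPKM with Kdr only (5 of 6) and from 0 through 21.2 to 523 FPKM with Pdgfra only (9 of 15). It was listed at 0 in all 11 neither cells, which allows a share of up to 27.3%. Hand1 was thus shared by the 3 receptor-bearing quadrants and absent from the fourth at this detection, with a difference of 4.22 on the log2(FPKM + 1) scale between both and neither.

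Tbx3, a T-box repressor of the early heart, had medians of 13.7 FPKM with both receptors, 6.51 with Kdr only, 0.494 with Pdgfra only and 0 with neither. It was detected in 15 of 16, 4 of 6, 7 of 15 and 1 of 11 cells, and its difference between both and neither was 3.25. Gata4, a zinc finger factor of cardiac mesoderm and endoderm, was detected in 15 of 16, 5 of 6, 10 of 15 and 3 of 11 cells, with a difference of 2.82. Hand1, Tbx3 and Gata4 were detected together in 11 of 16 double, 3 of 6 Kdr only, 5 of 15 Pdgfra only and 0 of 11 neither cells. Tbx5, a first heart field factor, was detected in 5 double cells, 1 Pdgfra only cell and no cell of the other quadrants. Nkx2-5, which marks cardiac commitment, was listed at 0 in all 48 cells. Myl7, an atrial myosin light chain, was detected in 10 of 16 double cells, up to 753 FPKM, and in 7 of the other 32.

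Of BMP genes, 2 were counted in the same comparison. Bmp4, a ligand that patterns lateral mesoderm, had medians of 15.8 FPKM with both and 0 with neither, and a difference of 2.43. Bmper, a secreted modulator of BMP, had a difference of 2.17 and was the only counted member of 12 BMP and TGF beta response genes, of which 8 passed. Mesp1, whose RNA can come from the induced and the endogenous copy alike, ranged from 0 through 11.7 to 254 FPKM with both receptors (13 of 16 cells) and from 0 through 19.4 to 79.6 FPKM with Pdgfra only (11 of 15). It ranged from 0 through 8.03 to 25.7 FPKM with Kdr only (4 of 6) and was detected in 2 of 11 neither cells, at 74.5 and 21.3 FPKM. Its difference between both and neither was 2.65. Snai1, a repressor that drives loss of epithelial junctions, had the same difference of 2.65. Prdm6, a repressor of smooth muscle progenitors, was detected in 13 of 16 double cells and 0 of 11 neither cells, with a difference of 3.34. Rgs5, a pericyte regulator of G protein signalling, had a difference of 3.44, which was 5.25 within label numbers up to 48 and 1.56 above.

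Some epithelial and epiblast genes were highest in the neither cells. Of 12 epithelial genes, 8 passed the filter, 4 were counted as higher with neither (Cdh1, Cldn6, Krt18 and Spint2) and 0 with both, and the median difference was -2.31. Cldn6 passed mainly through the neither cells. Of 19 pluripotency genes, 12 passed, 5 were counted as higher with neither (Fgf5, Pou5f1, Nanog, Dppa5a and L1td1) and 0 with both, with a median of -1.15. Of 15 mesenchymal genes, 9 passed, and 2 were counted as higher with both (Fn1 and Sparc). Of 11 neurectoderm genes, 2 passed, and 1 was counted as higher with neither (Otx2, at -2.01).

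Cldn6 (chromosome 17, 23679249 to 23682446), a tight junction protein of embryonic epithelia, was detected in 8 of 11 neither cells, from 0 through 27.9 to 258 FPKM. It was detected in 1 of 16 double cells at 17.3 FPKM, 1 of 6 Kdr only cells at 30.1 FPKM and 3 of 15 Pdgfra only cells at up to 82.5 FPKM. The difference between both and neither was -3.66. Cdh1, the epithelial cadherin, was detected in 8 of 11 neither, 3 of 16 double, 2 of 6 Kdr only and 5 of 15 Pdgfra only cells, with a difference of -2.67. Cdh1 and Cldn6 were detected together in 7 of 11 neither cells, against 1 of 16, 1 of 6 and 3 of 15 in the double, Kdr only and Pdgfra only cells. Krt18, an epithelial keratin, had medians of 245 FPKM with neither, 5.20 with both, 1.86 with Pdgfra only and 0 with Kdr only, and its difference was -3.93.

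Fgf5, a growth factor of the primed epiblast, ranged from 0 through 20.5 to 92.1 FPKM with neither (8 of 11 cells), and its highest value with both receptors was 0.362 FPKM (0 of 16; up to 18.8% allowed). It was detected in 6 of 15 Pdgfra only cells and 1 of 6 Kdr only cells. The difference between both and neither was -3.71. Pou5f1, the core factor of pluripotent cells, had medians of 45.7 FPKM with neither, 3.09 with both, 0.481 with Pdgfra only and 0 with Kdr only. Nanog was detected in every neither and every Pdgfra only cell, but its median was 34.4 FPKM with neither, 9.62 with Pdgfra only, 3.46 with both and 2.6 with Kdr only.

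T, the brachyury factor of the primitive streak, ranged from 0 through 61.7 to 473 FPKM with neither (9 of 11 cells) and from 0 through 0.580 to 44.5 FPKM with both (6 of 16). With Kdr only it ranged from 0 through 31.7 to 137 FPKM and with Pdgfra only from 0 through 0.136 to 89.4 FPKM. The difference between both and neither was -3.79, and it was -2.17 within label numbers up to 48 and -5.32 above. T and Krt18 were detected together in 9 of 11 neither, 3 of 16 double, 6 of 15 Pdgfra only and 1 of 6 Kdr only cells. Streak genes as a list did not follow T: 15 passed, with a median difference of 0.05, 2 counted as higher with neither (T and Cer1) and 2 with both (Mesp1 and Snai1). Eomes, a T-box factor of the streak, was detected in 13 of 16, 4 of 6, 10 of 15 and 8 of 11 cells of the double, Kdr only, Pdgfra only and neither quadrants, with a difference of 0.05. Foxa2, a forkhead factor of endoderm and axial mesoderm, was detected in 7 of 11 neither cells and 1 of 16 double cells, and Trh, expressed in early endoderm, had a difference of -3.02. Of 13 endoderm genes, 5 passed the filter in this comparison, and 2 were counted as higher with neither (Foxa2 and Trh). The other 3 had differences above 0, and the median difference was 0.24.

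**Figure D4:**
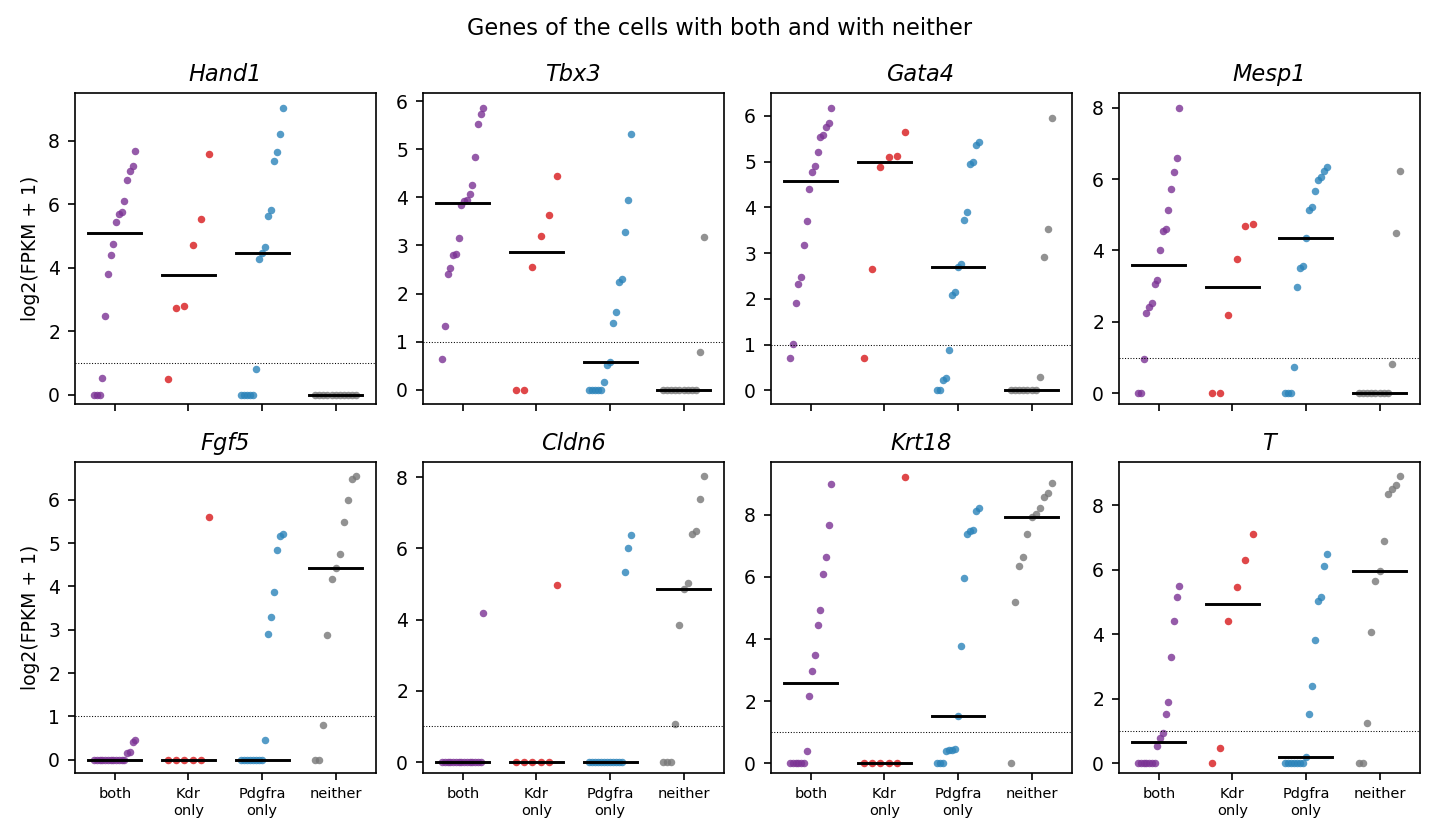
Log2(FPKM + 1) of 8 genes in each cell of the 4 quadrants (points, sorted within a quadrant), with black bars at the medians and dotted lines at 1 FPKM. Hand1, Tbx3, Gata4 and Mesp1 are low in most of the 11 neither cells, in which Fgf5, Cldn6, Krt18 and T have their highest medians.

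Several differences between double and neither cells moved with the label range. Krt18 had -5.01 up to number 48 and -2.68 above, Trh had -5.38 and -1.28, and Nanog had -3.04 and -1.47. Sparc had 1.75 and 3.08, Fn1 had 2.81 and 1.29, and Epha4 had 1.36 and 3.51. Each gene kept its side, which the choice of counted genes from these same cells favours, and each was under 2 in 1 range except Krt18. Between Pdgfra only and Kdr only cells, Gata6 had -3.17 and -1.02 and Sfrp1 had 3.92 and 1.68.

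The detection threshold moved the second comparison further. With quadrants made anew at 10 FPKM there were 7 double and 27 neither cells, and of 45 named genes 13 still differed by 2 or more in the same direction. Hand1 then had a difference of 1.09, Bmp4 of 0.22, Prdm6 of 0.90, Mesp1 of 1.14, T of -1.18 and Fgf5 of -1.90. Gata4, Krt18, Cldn6 and Cdh1 were still counted, at 2.18, -3.63, -2.41 and -2.04. In the first comparison 15 of the 38 counted named genes passed the filter at 10 FPKM. Of these 10 were still counted, among them Etv2 at -4.27 and Hoxb1 at 3.21. Gata2, Egfl7, Lmo2, Myc and Fgf3 did not pass, so they could not be compared at this threshold. Gata2, Egfl7 and Lmo2 did not pass within either label range.

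The quadrants were not uniform. In the neither quadrant, cells 70 and 90 held Mesp1, at 74.5 and 21.3 FPKM, and were listed at 0 for Cldn6, Cdh1 and Fgf5. Cell 70 also held Isl1 at 81.4 FPKM, and cell 90 held Rgs5 at 105 FPKM. Short RNA rows took 96.6% of the summed FPKM of cell 90. At least 12 of the 19 pluripotency genes were detected in 7 cells, found after the values were seen: 1 with both receptors, 2 with Kdr only, 1 with Pdgfra only and 3 with neither. Kdr only cell 65 held 18 of them together with Etv2 at 30 FPKM, T at 76.9 FPKM and Krt18 at 601 FPKM. Whether such a cell was captured as a doublet cannot be told from this table. Without these 7 cells the differences of Etv2 and Hoxb1 between Pdgfra only and Kdr only cells were -4.97 and 3.34. The difference of Hand1 between both and neither was then 4.34 and that of Krt18 was -4.45. Of the pluripotency genes counted as higher with neither, Fgf5 and Pou5f1 were then at -3.88 and -3.06. Nanog, L1td1 and Dppa5a were no longer counted, at -1.94, -1.80 and -1.63. The cells were left out by detection of the list that holds these genes, so smaller differences are partly built in.

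The housekeeping, cell cycle, glycolysis, NOTCH, WNT and other receptor tyrosine kinase lists are described last, and nothing is read from their counts. Over all genes, 0.912 and 1.12% were counted in the 2 directions of the first comparison. In the second these shares were 0.806 and 0.559%. The median difference of 12 housekeeping genes was 0.02 in the first comparison and -0.11 in the second, with Sdha, a mitochondrial enzyme, counted as higher with neither. Of 15 S phase genes, 1 was counted in the first comparison, Mcm5, higher with Pdgfra only by 2.03 overall and by 0.51 within label numbers up to 48, and 0 in the second. None of 15 genes of G2 and M phase was counted, with medians of 0.09 and 0.63, and none of 12 glycolysis and hypoxia genes, with medians of 0.16 and -0.38. Of 7 NOTCH response genes that passed in each comparison none was counted, and of 8 WNT response genes in the first, Sfrp1 was. Of other receptor tyrosine kinases, 10 passed in the second comparison and Epha4, an ephrin receptor, was counted as higher with both, detected in 13 of 16 against 3 of 11 cells. Fgfr1 was detected in 41 of 48 cells, with a difference of 0.78 in the first comparison and 0.59 in the second.

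**Figure D5:**
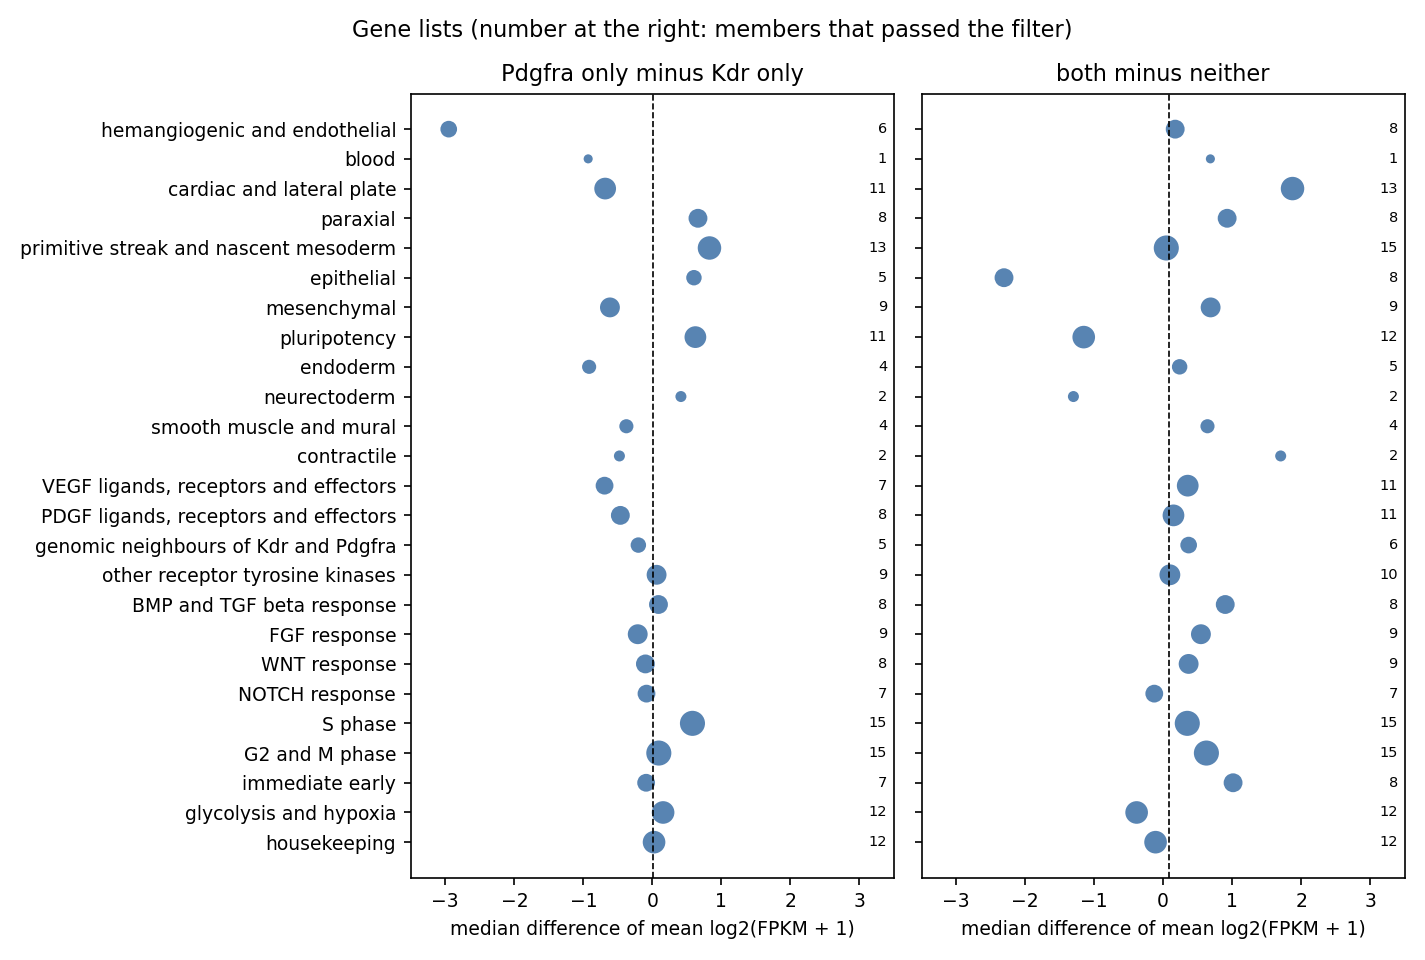
Median difference of mean log2(FPKM + 1) over the members of 25 gene lists that passed the filter (points sized by their number, printed at the right), for Pdgfra only minus Kdr only (left) and both minus neither (right), with dashed lines at the median of all genes. Some members passed only through the quadrant where they are high, so the lists are not ranked, and the 12 housekeeping genes have medians of 0.02 and -0.11.

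Among the counted genes, without predicted genes, those with the largest difference in detection between the single-receptor quadrants had mixed roles. On the Pdgfra side Zfp397, a zinc finger gene, Ube2q2, a ubiquitin-conjugating enzyme, and Prom1, a membrane glycoprotein of epithelial and progenitor cells, were each detected in 10 of 15 Pdgfra only cells and 0 of 6 Kdr only cells. On the Kdr side Btbd10 was detected in 5 of 6 and 1 of 15. Gmppb, an enzyme of GDP-mannose synthesis, was detected in 5 of 6 and 2 of 15. Between double and neither cells, Capn6, a calpain-like protein, and Rbm24, an RNA-binding protein of heart and muscle, were each detected in 14 of 16 and 2 of 11. Rbm47, an RNA-binding protein of endoderm, was detected in 3 of 16 double and 9 of 11 neither cells, and Pim2, a survival kinase, in 3 of 16 and 8 of 11. Within label numbers up to 48 and above, Capn6 had differences of 3.77 and 0.99, and Pim2 of -5.88 and -1.90.

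The genes most like each receptor over the 48 cells were taken from 8848 genes detected in at least 10 cells, by Spearman correlation of their levels, given as a description since all points share 1 preparation. For Kdr they were Slc6a6, a taurine transporter (rho 0.60), Pmp22, a myelin and junction protein (0.58), Cdk14, a cyclin-dependent kinase (0.58), the matrix protein Fn1 (0.57) and Prdm6 (0.56). The 99th percentile of all genes was 0.40, and Pdgfra itself stood at 0.27. For Pdgfra they were Pappa, a protease of insulin-like growth factor binding proteins (0.70), Hoxb1 (0.58), Foxc1 (0.53), the kinase Map2k6 (0.52) and Hs3st3b1, a heparan sulfate sulfotransferase (0.51), against a 99th percentile of 0.38. These genes were picked by the same values that made the quadrants, so the counts and medians that follow restate that choice. Pappa was detected in 7 of 16 double and 6 of 15 Pdgfra only cells and in 0 of the 17 cells without Pdgfra. Pmp22 had medians of 134 FPKM with Kdr only, 68.6 with both, 29.2 with Pdgfra only and 0.145 with neither.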

How the data were processed

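Single-cell RNA-seq of 48 cells was read from 1 table with a column per cell, matched to the cells by title. The table names no unit. The authors' deposited values were read as FPKM because Cufflinks 2.2.1.0 is listed in the submitters' processing notes, with TopHat 0.7, CASAVA 1.8.2 and mm10. The sources used here do not give the annotation, read filters or scaling. FPKM divides by transcript length, so short RNA rows can be very large. Rows of the 240 symbols found on several of the 23746 rows were summed, giving 23284 symbols. Quadrants used detection at 1 FPKM. Differences are of mean log2(FPKM + 1), a scale that understates changes of low genes, without 779 short RNA symbols, Kdr and Pdgfra. A gene was counted at 2 or more if detected in at least 5 cells of the comparison. FPKM keeps no depth, so shares alone carry intervals (exact Clopper-Pearson, 95%), and 0 of n cells is given with a limit of 3 counts, covering counting error only.

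The members and the 25 gene lists (358 genes, 3 found under older symbols) were chosen with earlier results of these data known. Named genes were the receptors, the 12 (first comparison) or 8 (second) counted genes per direction with the largest difference in detection, counted and most detected list members, and the 5 most like each receptor. A choice of these is printed, and 1 gene that the rule names is not reported here. Asap1, Tal1, Kit and other members outside the rule, and genes detected together, were named after their values were seen. Coordinates are from GENCODE M21 (GRCm38) and promoter windows from RefSeq (GRCm38.p6). Hand1, Lmo2 and Tbx3 had no promoter entry. No doublet caller was run and no cell was removed. Python 3.11.15, pandas 2.3.3, numpy 2.4.6 and scipy 1.17.1 were used, and the procedure was tested on simulated data. Alternatives were other thresholds, pseudocounts, filters, scalings, cell subsets and regressions.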

Additional observations from a re-analysis of the deposited data

Results flagged for a closer look

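The lowest number of detected genes among the 6 Kdr only cells, 5057 in cell 92, stood apart from the other 5 by Dixon's criterion, which flags about 1 in 20 groups by chance. Etv2 and Gata2 were detected in that cell.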

How the results depend on the processing

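Counts of genes moved with the setting while named genes mostly kept their direction. The counted named genes were chosen by their difference in these same cells, and each setting reuses all or some of them. A kept direction was therefore largely fixed in advance and supports nothing. For genes higher with Pdgfra only, higher with Kdr only, higher with both and higher with neither, the main counts were 78, 96, 75 and 52. With a pseudocount of 0.1 FPKM they were 471, 549, 591 and 274, and by the difference of medians 337, 448, 463 and 261. Among label numbers up to 48 they were 248, 217, 148 and 176, and above 48 they were 318, 288, 371 and 177. A difference in detection of 40 points counted 239, 282 and 227 in the first 3. Without the 7 cells rich in pluripotency genes, an alternative chosen after seeing the data, they were 216, 198, 148 and 84. At a threshold of 0.1 FPKM the first 2 were 378 and 244, and at 10 FPKM the counts for Kdr only and neither were 145 and 31. After rescaling without short RNAs the first 3 were 147, 183 and 160, and without the 7 cells under 5189 detected genes the counts for Kdr only and neither were 159 and 94. Regression on genes detected and on cell number left 49 and 46 genes higher with both. Leaving out each cell in turn gave 63 to 129, 92 to 166, 67 to 95 and 42 to 74. The first count was 129, 122 and 123 without Kdr only cells 32, 36 and 65, and the second was 166 without cell 92. At 10 FPKM there were 7 double, 8 Pdgfra only and 27 neither cells, at 0.1 FPKM 3 Kdr only cells, and without the cells under 5189 genes 7 neither cells. The cause of these shifts was not tested. Of 38 named genes counted in the first comparison and 46 in the second, each kept its direction in the settings where it passed the filter, except Otx2 in the second, at 0.89 for a threshold of 10 FPKM. Sizes were less stable: at 10 FPKM 10 of 15 and 13 of 45 were still at 2 or more, and up to number 48 17 of 28 and 41 of 46. Among the medians of lists, 69 of the values under alternatives were labelled as moved, by the spread of members, and 621 were not. The blood list had 1 member that passed in each comparison and so no spread. Its values were therefore labelled as moved whether or not they changed. No paired analysis was possible because the labels give 1 group with no shared replicate numbers. Small quadrants and the unknown depth limit what these differences can show.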
